A study of Mus musculus with 4 samples.

Results

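The Hox genes of CD45-negative mouse lymph node cells were compared between the gut-draining mesenteric lymph node (mLN) and peripheral lymph node (pLN). Members were all array probes whose gene name in the files is Hoxa, Hoxb, Hoxc or Hoxd with a number, that is, the genes of the 4 mouse Hox clusters. This gave 50 probes for 38 genes among 41174 probes for 27586 genes or transcripts: 11 genes of HoxA, 10 of HoxB, 8 of HoxC and 9 of HoxD. A pair of probes measured 12 of the genes and a single probe the other 26. A probe for Hoxc11 was not analysed here.

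RNA came from wild-type C57BL/6NCrl mice, with no treatment of the animals stated, from nodes digested with collagenase and sorted magnetically for cells that lack CD45, the surface marker of leukocytes. The stated purity (mean ± SD) was 97.4% ± 2.0 for mLN and 97.5% ± 2.2 for pLN. In each of 2 experiments 1 mLN and 1 pLN sample were hybridised to 1-colour Agilent arrays, giving 4 arrays, 2 per node. The sources used here do not give ages, the number of animals in a sample, the peripheral node taken or whether the experiments used separate animals. The series' design text calls the approaches independent, without more detail. The p-values cover only the spread among these 4 samples, which may be technical. The 75th percentile of the signal was 1686 to 1741, and 74.0% to 81.1% of all probes were well above background on an array. All 11 markers of reticular stroma were well above background on all 4 arrays and none passed between the nodes. Of 9 leukocyte markers, 8 were well above background on all 4 arrays, Ptprc, the CD45 gene, among them.

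Hox genes encode homeodomain transcription factors that give cells their position along the body and limb axes in the embryo. They lie in clusters in the order in which they are used along the axis, from paralogue 1 (anterior) to paralogue 13 (posterior), and genes of the same number in different clusters are paralogues that arose from 1 ancestral gene. Connective tissue cells of adult organs retain Hox patterns that differ with their place in the body.

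The files place the HoxA probes on chromosome 6, the HoxB probes on chromosome 11, the HoxC probes on chromosome 15 and the HoxD probes on chromosome 2 of the mm8 build. Detection differed by paralogue number. Every gene of paralogues 2 to 7, 9 and 10 on the array was well above background on all 4 arrays, 24 genes in all. Of the 4 genes of paralogue 13, none was, and Hoxa13 alone passed on a single array, mLN 2. In total 29 of the 38 genes were well above background on all 4 arrays, beside 20076 of all 27586 genes or transcripts. They were 9 in HoxA, 7 in HoxB, 6 in HoxC and 7 in HoxD. These 29 were also the genes that entered the test, for which a probe needed such a signal on all arrays of mLN or of pLN. Hoxb1, Hoxb13, Hoxc12, Hoxc13, Hoxd1 and Hoxd13 were not well above background on any array, and Hoxb8 was on 1 array of each node. No Hox gene reached such a signal on both mLN arrays and no pLN array, or the reverse.

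**Figure D1:**
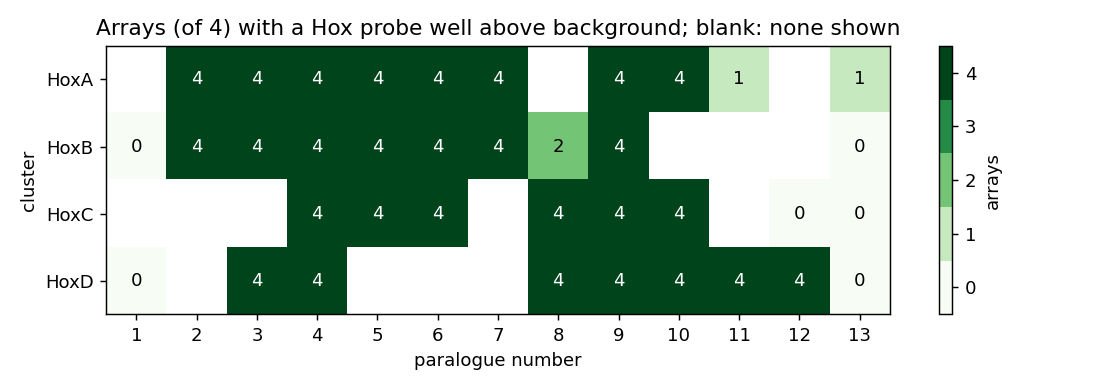
Grid of the 4 Hox clusters (rows) against paralogue number (columns), each cell giving the number of arrays, of 4, on which the gene's better probe was well above background, in darker green for more arrays. The cells at 4 fill paralogues 2 to 7, 9 and 10 wherever the array has a probe, and the paralogue 13 column holds 0 or 1.

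Hoxa11, a gene of the developing limb and uterus, was the member whose arrays of 1 node lay farthest apart. Its log2 signal relative to the 75th percentile of the array, the scale of every level given here, was −8.96 and −8.79 on pLN 1 and pLN 2, −3.52 on mLN 1 and −7.79 on mLN 2. Only mLN 1 was well above background, so the gene was not tested and no ratio is given.

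On this scale 0 is the array's 75th percentile and 1 step is a doubling of signal. Levels of different probes are not comparable with each other, since each probe binds with its own strength, so each gene is compared only with itself across arrays. Hoxa7, Hoxb2, Hoxb7, Hoxd8, Hoxd9 and Hoxd10 were above 0 on all 4 arrays, and Hoxc6 and Hoxc9 only on the mLN arrays. None of the 29 genes passed an adjusted p of 0.05 in either direction (limma, Benjamini-Hochberg over 21392 genes), against 1.05% of all genes tested, and the Hox genes' adjusted p ran from 0.108 to 0.980. At an unadjusted limma p below 0.05 there were 7, of which Hoxc6, Hoxc8 and Hoxc9 were higher in mLN and Hoxb6, Hoxd8, Hoxd9 and Hoxd10 lower. That is 7 of 29, beside 14.7% of all genes tested (7.8% higher and 6.88% lower). The arrays of the nodes did not overlap for 12 genes, 4 of them higher in mLN (Hoxc6, Hoxc8, Hoxc9 and Hoxd3) and 8 lower (Hoxa6, Hoxa9, Hoxb6, Hoxd4 and Hoxd8 to Hoxd11), beside 20.6% and 25% of all genes. In bulk RNA, fewer cells of a type and less RNA per cell cannot be told apart.

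The median log2 ratio of mLN over pLN was 0.04 over the 29 genes and −0.03 over all genes tested, and the cluster medians were spread around it. HoxA had a median of 0.07 (0.01 in experiment 1 and −0.09 in experiment 2) and HoxB of 0.04 (−0.02 and 0.02). For HoxC the median was 0.64, with 0.78 and 0.56 in the experiments, and for HoxD it was −0.71, with −0.66 and −0.93. Genes with a ratio above 1 in both experiments made up 4 of 6 in HoxC, 1 of 7 in HoxD, 3 of 9 in HoxA and 2 of 7 in HoxB, beside 28% of all genes. Genes with a ratio below 1 in both made up 5 of 7 in HoxD and 0 of 6 in HoxC, and 3 of 9 and 2 of 7 in HoxA and HoxB, beside 34.9% of all genes. The difference between clusters was not tested, and neighbouring genes of a cluster share the same 4 arrays and are not independent replicates. With 1 array left out, the median of HoxC stayed between 0.52 and 0.76. The median of HoxD ran from −1.08 to −0.56, the first of these without mLN replicate 1.

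**Figure D2:**
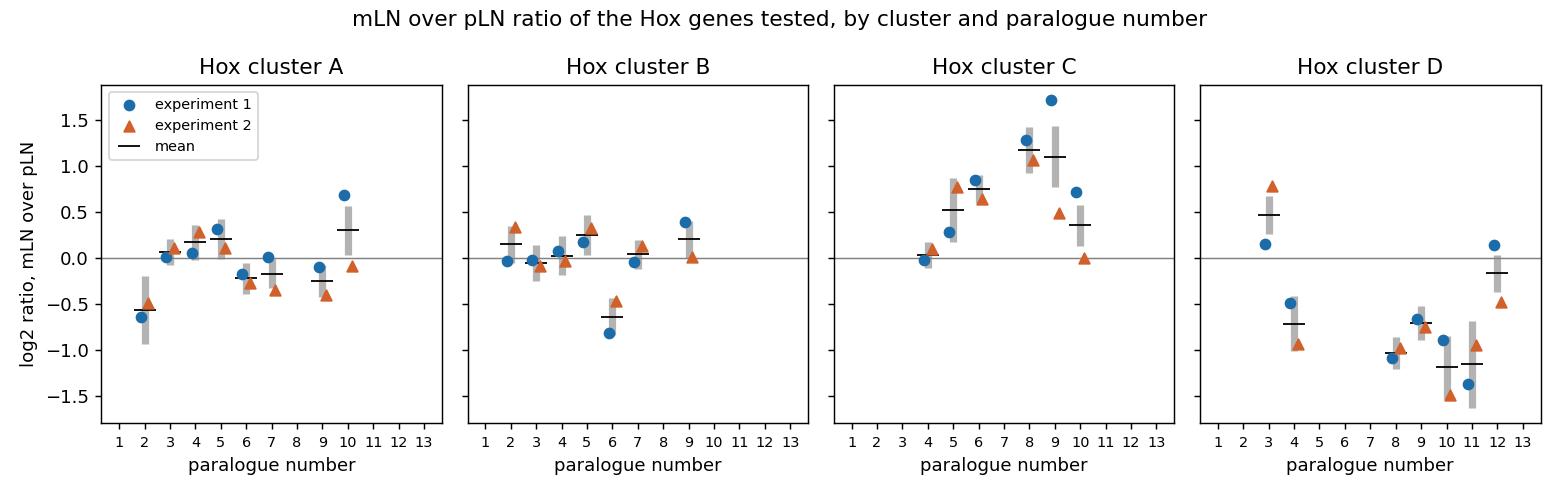
Log2 ratio of mLN over pLN (vertical axis) against paralogue number (horizontal axis) for 28 of the Hox genes tested, in a panel for each cluster. Circles are experiment 1, triangles experiment 2, black dashes the mean and grey bars 1 standard error either way. The means of the HoxC genes lie above 0, up to 1.17 for Hoxc8. Hoxd4 and Hoxd8 to Hoxd11 lie below 0 in both experiments. The means of the HoxA and HoxB genes shown lie between −0.64 (Hoxb6) and 0.30 (Hoxa10).

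In HoxC, the genes with the largest ratios were neighbours, Hoxc6, Hoxc8 and Hoxc9, whose probes lie within 27.4 kb. Hoxc8 and Hoxc9 pattern the thoracic skeleton and motor neurons of the spinal cord, and Hoxc6 acts at the level of the forelimb and the thorax. The probes that carry these values are shown by their middle stretch, bases 16 to 45 of 60, as the files give them, on the strand of the transcript. The files place the Hoxc9 probe at chr15:102812338-102812397, the Hoxc8 probe at chr15:102820966-102821025 and the Hoxc6 probe at chr15:102839635-102839696 (mm8, forward strand). Whether a probe lies in coding sequence or in a UTR is not given in the sources used here.
Hoxc6: tctgtgtgaatatttctagctgtatttgtg
Hoxc8: gtcatttgcttttatagagaatagaatgac
Hoxc9: tgtgggagggttaagtgttgagaaattggt

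Hoxc6 had levels of −0.08 on both pLN arrays, 0.78 on mLN 1 and 0.56 on mLN 2. Both mLN arrays lay above both pLN arrays. The log2 ratio was 0.74 ± 0.15 (SE, n = 2 per node, limma adjusted p = 0.138). Hoxc8 was at −2.18 and −1.64 on pLN 1 and pLN 2 and at −0.90 and −0.58 on mLN 1 and mLN 2. It was the only Hox gene with a difference of at least 2-fold in both experiments, 1.28 and 1.07 on the log2 scale, a rule that 2.75% of all genes met in that direction and 1.71% in the other. At 1.5-fold, Hoxc6 and Hoxc8 were the members higher in both experiments, beside 5.39% of all genes. Its fitted ratio of 1.17 ± 0.25 did not pass (limma adjusted p = 0.150, range 0.0731 to 0.689 over the alternatives). Hoxc9 was at −1.17 and −0.38 on the pLN arrays and at 0.54 and 0.10 on the mLN arrays. The groups did not overlap, but the ratio of 1.71 in experiment 1 was much larger than the 0.49 of experiment 2, so the fitted 1.10 ± 0.33 (limma adjusted p = 0.257) ranged from 0.70 to 1.49 with 1 array left out.

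Beyond these neighbours the HoxC ratios were smaller. Hoxc10, the posterior neighbour and a hindlimb gene, gave 0.72 in experiment 1 and −0.00 in experiment 2, and its other probe had a fitted ratio of 0.18. On the anterior side Hoxc5 had 0.28 and 0.77 (fitted 0.53 ± 0.35), and Hoxc4 had −0.02 and 0.10 (0.04 ± 0.14). None of these 3 separated the nodes by more than the spread between arrays. They fall outside the rule for named genes and are given to complete the cluster.

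In HoxD, 4 of the 7 genes tested were lower in mLN by at least 1.5-fold in both experiments. They were the only ones of the 29 Hox genes tested, and 4.34% of all genes met this rule in that direction. These 4 genes, Hoxd8 to Hoxd11, form a run that is delimited by the rule itself. Their probes lie within 23.1 kb, from chr2:74484810 to chr2:74507862. These genes act in the trunk and in the proximal and distal limb bud, Hoxd9 to Hoxd11 in a nested order. The stretches below are bases 16 to 45 of the Hoxd9 and Hoxd10 probes, and both Hoxd9 probes are shown because they measured the gene at separate places. The positions in the files are chr2:74507803-74507862 for Hoxd8, chr2:74500115-74500174 and chr2:74500458-74500517 for Hoxd9 and chr2:74495062-74495121 for Hoxd10 (mm8, forward strand).
Hoxd9, probe 1: tcacccgggaccggcgctacgaggtggcta
Hoxd9, probe 2: tcgcatatgtattggagaaaccaagtggct
Hoxd10: agatcagtaagagcgttaacctcaccgaca

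Hoxd8 had levels of 1.33 and 1.05 on pLN 1 and pLN 2 and of 0.25 and 0.07 on mLN 1 and mLN 2. Both mLN arrays lay below both pLN arrays, by 1.08 in experiment 1 and 0.98 in experiment 2. Its ratio of −1.03 ± 0.17 had the smallest p of the Hox genes (limma adjusted p = 0.108, range 0.0501 to 0.689 over the alternatives) and did not pass. Hoxd9 was at 1.90 and 1.69 on the pLN arrays and at 1.24 and 0.94 on the mLN arrays by the brighter probe, a ratio of −0.70 ± 0.18 (limma adjusted p = 0.201). By the other probe it was at 0.79 and 0.77 in pLN and at 0.25 and −0.24 in mLN, a ratio of −0.78 ± 0.21. Both probes therefore placed the mLN arrays below the pLN arrays by a like amount.

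Hoxd10 was at 1.95 and 1.67 on the pLN arrays, at 1.07 on mLN 1 and at 0.19 on mLN 2. The arrays of the nodes did not overlap, and the ratio of −1.18 ± 0.34 (limma adjusted p = 0.235) ran from −1.62 to −0.75 with 1 array left out, since mLN 2 lay 0.88 below mLN 1. Hoxd11, which falls outside the rule for named genes, was dim on this array, at −4.17 and −5.30 in pLN and at −5.53 and −6.24 in mLN. Its ratio of −1.15 ± 0.47 (limma adjusted p = 0.385) was the least precise of the run in this fit, which has no block. With 1 array left out it ran from −1.72 (without pLN replicate 2) to −0.58 (without pLN replicate 1). With the experiment as a block, the limma adjusted p was 0.0966 for Hoxd11, 0.0839 for Hoxd8, 0.138 for Hoxd9 and 0.113 for Hoxd10. Under the planned normexp background, which moved the median of all genes to 0.38, Hoxd11 turned to 1.13, while Hoxd8, Hoxd9 and Hoxd10 stayed below 0.

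On the flanks of this run, Hoxd4 was also lower in mLN in both experiments, with a fitted ratio near that of Hoxd9 (−0.70). Hoxd12 and Hoxd3 were not lower in both. Hoxd12, the posterior neighbour, had 0.15 in experiment 1 and −0.48 in experiment 2 (fitted −0.16 ± 0.20). Hoxd4, a hindbrain and cervical gene on the anterior side, had −0.49 and −0.93 (−0.71 ± 0.30, limma adjusted p = 0.397), and −1.08 without mLN replicate 1 and −0.34 without mLN replicate 2. Hoxd3, next to it, was dim, at −5.96 and −6.17 in pLN and at −5.81 and −5.40 in mLN. With 0.15 and 0.78 (0.46 ± 0.21) it was the only HoxD gene tested with a ratio above 1 in both experiments. Its other probe was at −6.16 and −6.64 in pLN and at −8.56 and −8.38 in mLN, opposite in direction to the probe that entered. That other probe was well above background on pLN 1 alone and did not enter, so it gives no ratio.

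**Figure D3:**
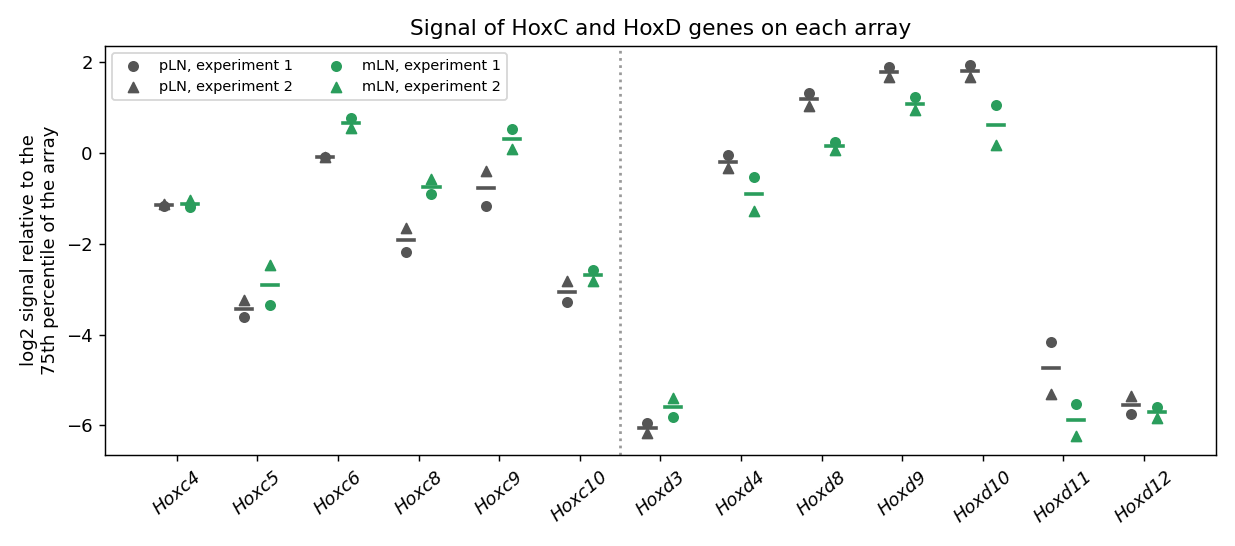
Log2 signal relative to the 75th percentile of the array (vertical axis) for each HoxC and HoxD gene tested (horizontal axis, in paralogue order within a cluster), with pLN in grey, mLN in green, circles for experiment 1, triangles for experiment 2 and bars for the means. The mLN points lie above the pLN points for Hoxc6, Hoxc8, Hoxc9 and Hoxd3 and below them for Hoxd4 and Hoxd8 to Hoxd11. Heights compare only within a gene.

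Set side by side within a paralogue number, HoxC and HoxD genes had different ratios. The log2 ratio of Hoxc8 exceeded that of Hoxd8 by 2.36 in experiment 1 and 2.05 in experiment 2. For paralogue 9 the difference between the ratios of Hoxc9 and Hoxd9 was 2.38 and 1.23, and for paralogue 10 it was 1.60 and 1.48, where Hoxd10 gave most of it. For paralogue 4 the difference was 0.47 and 1.03. In all 4 pairs with both members tested the HoxC ratio was above the HoxD ratio in both experiments. These differences of ratios are a description, without a test, and the pairs share the same arrays.

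Without the cluster, the paralogue number separated little. Median log2 ratios were 0.11 for paralogues 1 to 3, 0.04 for paralogues 4 to 7 and −0.02 for paralogues 8 to 11. The last of these joins HoxC and HoxD genes of opposite sign, from −1.18 for Hoxd10 to 1.17 for Hoxc8. Paralogue 5, with Hoxa5, Hoxb5 and Hoxc5, was the only number with 3 genes above 1 in both experiments, beside 28% of all genes. Several numbers had fewer than 3 genes tested. The fitted ratios were 0.21, 0.25 and 0.53, none past the test (limma adjusted p = 0.751, 0.693 and 0.598). Hoxa5 turned to −0.012 without pLN replicate 1.

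Besides Hoxb6, 14 HoxA and HoxB genes lay between −0.56 ± 0.37 (Hoxa2) and 0.30 ± 0.26 (Hoxa10), and 5 had opposite signs in the experiments (Hoxa7, Hoxa10, Hoxb2, Hoxb4 and Hoxb7). Hoxa10, a gene of the uterus and the proximal limb, gave 0.69 in experiment 1 and −0.09 in experiment 2. Hoxa7 and Hoxb7, trunk genes that were above 0 on every array, had ratios of −0.17 ± 0.16 and 0.04 ± 0.16. Hoxa6 and Hoxa9 had mLN arrays below pLN arrays, with ratios of −0.22 ± 0.17 and −0.25 ± 0.17 (limma adjusted p = 0.647 and 0.612).

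Hoxb6, a thoracic and limb gene, was the HoxB gene with the smallest p. The probe that represents it was at −0.09 and −0.53 on the pLN arrays and at −0.90 and −0.99 on the mLN arrays, a ratio of −0.64 ± 0.20 (limma adjusted p = 0.272). The other probe, also well above background on all 4 arrays, was at −1.004 and −1.15 in pLN and at −0.97 and −0.62 in mLN, a ratio of 0.28 ± 0.19. The probes lie at chr11:96115057-96115116 and chr11:96117339-96117398 (mm8, forward strand), and no direction can be given for the gene as a whole.

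Among the 8 Hox genes with a pair of probes in the test, the signs differed in 4. Besides Hoxb6 these were Hoxa3 (0.07 ± 0.14 against −0.40 ± 0.33), Hoxa4 (0.17 ± 0.19 against −0.02 ± 0.17) and Hoxb2. Hoxa3 and Hoxa4 act in the hindbrain, pharynx and neck. For Hoxa3 the probe that represents the gene was at −2.56 and −2.68 on the pLN arrays and at −2.54 and −2.57 on the mLN arrays, and the other at −3.15 and −3.005 in pLN and −3.91 and −3.05 in mLN. For Hoxa4 the probes were at −3.78 and −3.64 and at −5.70 and −5.50 in pLN, and at −3.72 and −3.35 and at −5.71 and −5.53 in mLN. The arrays of the nodes overlapped for all 4 of these probes.

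Hoxb2, a gene of the hindbrain, had probes on opposite strands, shown here because the orientation separates the values. The probe at chr11:96169898-96169957 lies on the forward strand, as HoxB transcripts do, and the probe at chr11:96166636-96166695 on the reverse strand (mm8). The stretches are bases 16 to 45.
Hoxb2, forward: caacgaaatctcaggaataattaaactcta
Hoxb2, reverse: gtgaggcacctatgatgggctcaattttag

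The forward probe was at 0.44 and 0.51 on the pLN arrays and at 0.41 and 0.85 on the mLN arrays, a ratio of 0.15 ± 0.20. The reverse probe was at −3.82 and −3.76 in pLN and at −4.35 and −5.06 in mLN, a ratio of −0.92 ± 0.28 (limma adjusted p = 0.288). The files give both the name Hoxb2, and what transcript the reverse probe binds was not tested.

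Hox genes resemble each other most in the homeobox, which raises the question of whether a probe reads several genes. Among 1213 pairs of probes of different Hox genes the median longest shared run was 6 bases, and 1 pair shared more than 15. That pair is the Hoxa9 probe and the Hoxb3 probe that represents its gene, with a shared run of 22 bases. Whether the ratios of Hoxa9 (−0.25 ± 0.17) and Hoxb3 (−0.06 ± 0.19) hold signal of other Hox transcripts was not tested, and the annotation of this Hoxb3 probe also lists a Hoxd3 transcript. The other Hoxb3 probe had −0.38 ± 0.17. None of the HoxC and HoxD probes printed above shared more than 14 bases with a probe of another Hox gene. Probes were compared with probes only and not with whole transcripts. Whether the printed probes read transcripts of other Hox genes was therefore not tested.

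Transcripts other than the coding genes gave few values. Of 15 noncoding and antisense transcripts of the clusters, 3 were found on the array by name and 2 were tested. Hoxd3os1, on the strand opposite to the HoxD genes, was at −2.20 and −2.23 on the pLN arrays and at −2.92 and −3.05 on the mLN arrays. The ratio was −0.77 ± 0.14 (limma adjusted p = 0.121), and the other, dimmer probe had −0.88 ± 0.35. Both probes lie between those of Hoxd8 and Hoxd4, at chr2:74510948-74511007 and chr2:74514163-74514222. Normexp turned the ratio to 0.37, with the median of all genes at 0.38. Hoxaas2 had −0.25 ± 0.27 (limma adjusted p = 0.769).

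Genes on either side of the clusters mostly had small ratios. Of 28 listed, 25 were tested, none passed in either direction and 24 had a log2 ratio smaller than 0.6 in size, all but Nfe2 (−0.86 ± 0.62), with just 1 of its mLN arrays well above background. Evx2, the homeobox gene that adjoins Hoxd13, had −0.03 ± 0.15, and Mtx2, a mitochondrial import gene on the anterior side of HoxD, had −0.13 ± 0.15. On the HoxC side, Cbx5, the heterochromatin protein gene, had 0.46 ± 0.19, and Smug1, a DNA repair gene, −0.11 ± 0.21. The smallest p among these genes belonged to Ttll6, a tubulin-modifying enzyme gene beside HoxB (0.51 ± 0.13, limma adjusted p = 0.206), followed by Cbx5 (0.382) and Calcoco2 (−0.52 ± 0.22, 0.403). Evx2, Mtx2 and Smug1 were named after their values were seen, for their position.

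Hox proteins bind DNA with cofactors of the TALE homeobox class, the Pbx, Meis and Pknox proteins, to which the Tgif repressors are related. Of 11 such genes tested, 1 was called higher in mLN and none lower, beside 0.776% and 0.276% of all genes. Meis1 was at −2.46 and −2.48 on the pLN arrays and at −0.50 and −0.26 on the mLN arrays. The arrays of a node lay close together and the nodes 1.96 and 2.22 apart, a log2 ratio of 2.09 ± 0.16 (limma adjusted p = 0.0197). Its other probe, at a separate place in the gene, had 2.14 ± 0.25. The call ended without either pLN array (adjusted p = 0.157 and 0.181), without mLN replicate 2 (0.0537), with normexp (0.689) and without a filter on dim probes (0.0675), and the ratio was 1.94 to 2.21 in all of the settings tried.

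The other cofactor genes did not pass. Meis3 had 0.62 ± 0.14 and Tgif1 −0.59 ± 0.16 (limma adjusted p = 0.162 and 0.218), each with the same direction in both experiments. Pbx4, which falls outside the naming rule, had 0.57 ± 0.19. The median over the 11 genes was 0.23, and 4 had an unadjusted limma p below 0.05, beside 14.7% of all genes.

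**Figure D4:**
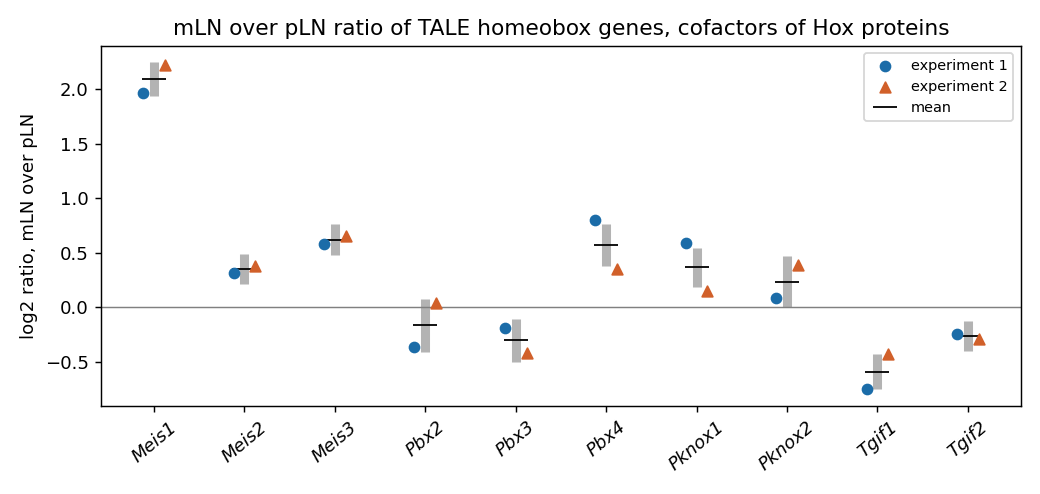
Log2 ratio of mLN over pLN (vertical axis) for 10 of the TALE homeobox genes tested (horizontal axis), with circles for experiment 1, triangles for experiment 2, black dashes for the mean and grey bars for 1 standard error either way. Meis1 stands at 2.09, and the other 9 genes lie between −0.59 and 0.62.

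Regulators that set Hox patterns in the embryo were read as further lists. Among 10 upstream regulators tested, of 13 listed, none passed. The retinoic acid receptor gene Rarb, itself a target of retinoic acid, was at −1.92 and −3.01 on the pLN arrays and at −0.09 and −0.61 on the mLN arrays, a ratio of 2.11 ± 0.43 (limma adjusted p = 0.139). Rxrg, a retinoid X receptor gene, had 0.38 ± 0.19, and Ctcf, whose product insulates domains within Hox clusters, −0.04 ± 0.14. Rara and Rarg, the other retinoic acid receptor genes, had −0.01 ± 0.37 and −0.05 ± 0.15. The Cdx genes, which activate Hox genes in the tail bud, were not well above background on both arrays of either node and were not tested.

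Polycomb proteins keep Hox genes silent where they are not used, and trithorax proteins keep them active. None of 29 Polycomb genes passed and none had an unadjusted limma p below 0.05, with a median of −0.12 and a range of −0.39 to 0.22. The smallest p belonged to Bmi1 (−0.35 ± 0.14), Cbx2 (−0.31 ± 0.14) and Scmh1 (−0.39 ± 0.18), subunits of the complex that modifies histone H2A, with limma adjusted p of 0.376 to 0.443. Ezh2, the histone H3 methyltransferase, had −0.11 ± 0.14. Of 14 trithorax and demethylase genes none passed, and the median was −0.04. Kmt2a, the methyltransferase that maintains Hox expression, had 0.25 ± 0.16, Men1 −0.20 ± 0.15 and the demethylase gene Kdm6b 0.73 ± 0.50, with 1.32 in experiment 1 and 0.15 in experiment 2.

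Homeobox genes outside the Hox clusters gave 9 genes tested of 18 listed, with 1 called higher in mLN and none lower, beside 0.776% and 0.276% of all genes. Nkx2-3, a gene of gut and spleen mesenchyme, had 6.00 ± 0.26 (limma adjusted p = 0.0101, ended without pLN replicate 1 at 0.0604, without pLN replicate 2 at 0.0628 and with normexp at 0.507). Nkx3-2, which acts in the spleen anlage and the vertebrae, did not pass (limma adjusted p = 0.118) and was dim in mLN, at −5.66 and −5.10. Its estimated excess in mLN was at least 2.68-fold. This is a bound, because the pLN arrays did not measure the gene well above background. Each pLN array was set to the higher of its own signal and the lowest signal of any probe well above background there. The size of the bound rests on that floor. En2, of the midbrain and hindbrain, had −0.59 ± 0.21 (limma adjusted p = 0.327). No Hox gene tested came near the size of the Nkx2-3 ratio, the largest being 1.18 in either direction on the log2 scale.

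Promoter sequence could be read for 22 of the 38 genes, in 24 windows of the 250 bases before the start (RefSeq, GRCm38.p6). The windows shown are those of Hoxd8, Hoxd9 and Hoxd10, adjacent genes with ratios of one sign in both experiments and an unadjusted limma p below 0.05. Hoxd11, next to them and of the same sign, did not reach that p, and its windows are not printed. Capitals mark AGGTCA on either strand, the core motif that retinoic acid receptors and other nuclear receptors bind. The windows are chr2:74704365-74704614 for Hoxd8, chr2:74697513-74697762 for Hoxd9 and chr2:74691641-74691890 for Hoxd10, all on the forward strand.
Hoxd8: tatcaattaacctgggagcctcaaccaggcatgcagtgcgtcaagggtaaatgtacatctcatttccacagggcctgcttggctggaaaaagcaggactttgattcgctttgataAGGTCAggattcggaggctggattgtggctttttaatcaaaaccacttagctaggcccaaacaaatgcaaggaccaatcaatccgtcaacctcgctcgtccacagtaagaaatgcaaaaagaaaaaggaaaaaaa
Hoxd9: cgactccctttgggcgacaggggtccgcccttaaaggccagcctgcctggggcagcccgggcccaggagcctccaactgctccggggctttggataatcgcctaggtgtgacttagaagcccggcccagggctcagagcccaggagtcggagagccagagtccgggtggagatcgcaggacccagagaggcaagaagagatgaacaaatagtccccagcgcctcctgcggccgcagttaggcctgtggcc
Hoxd10: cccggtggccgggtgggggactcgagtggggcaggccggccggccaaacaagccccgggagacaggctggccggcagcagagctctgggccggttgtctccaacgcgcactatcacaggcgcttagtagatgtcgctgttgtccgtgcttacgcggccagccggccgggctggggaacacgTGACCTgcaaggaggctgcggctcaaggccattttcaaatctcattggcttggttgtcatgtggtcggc

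AGGTCA occurred in 6 of the 24 Hox windows (25%) and in 14.0% of all 32851 windows of that length. It occurred in the windows of Hoxd3, Hoxd4, Hoxd8, Hoxd10, Hoxb4 and Hoxc4, genes with ratios of both signs, and not in those of Hoxd9 or Hoxd11. TGACAG, the core that Meis proteins bind, occurred in 8.33% of Hox windows and 15.9% of all, TGATTNAT, a joint Pbx and Hox site, in 8.33% and 2.82%, and TAATTA, a homeodomain core, in 8.33% and 4.84%, each counted on both strands with overlaps between motifs allowed. The Hox windows held a median of 12.5 CG dinucleotides against 6 over all windows. A match is a description of these letters and not a bound site.

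Marker genes of other tissues also differed between the nodes, and their part in the Hox ratios was not tested. Of 8 mesothelium markers, 6 were called higher in mLN, with summed log2 levels of 4.66 and 4.70 in pLN against 6.00 and 5.62 in mLN. These sums include Gpm6a, at 4.44 and 4.40 in pLN and with a ratio of −0.01, and for Wt1 and Bnc1 neither pLN array was well above background. Of 9 pancreatic acinar markers, 1 was called, Amy2a5, for which neither pLN array was well above background, and the ratios ran from 5.71 to 10.15. Their sum was 4.60 on pLN 1, 0.23 on pLN 2, 10.09 on mLN 1 and 8.65 on mLN 2. Of 10 markers of surface and glandular epithelium, 3 were called lower in mLN, with sums of 3.61 and 4.33 in pLN against 2.97 and 2.45, and for Elf5 and Esrp1 neither mLN array was well above background. None of 9 endothelial, 9 leukocyte, 11 reticular stroma, 6 adipocyte and 6 skeletal muscle markers tested was called. At an unadjusted limma p below 0.05 there were 6 endothelial, 0 leukocyte, 1 reticular stroma, 2 adipocyte and 1 skeletal muscle marker, beside 14.7% of all genes. The endothelial markers had a median ratio of −0.55, beside −0.71 for HoxD and −0.03 for all genes, and 8 of the 9, all but Lyve1 (1.04 ± 0.17), were lower in mLN in both experiments, beside 34.9% of all genes. Their sums were 6.81 and 6.68 in pLN and 6.63 and 6.40 in mLN. The sums of the reticular stroma markers were 9.90 and 10.06 in pLN and 10.06 and 10.22 in mLN.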

How the data were processed

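Agilent Feature Extraction 9.5.3.1 produced the deposited intensity values, as the submitters' processing notes and the headers state. Per the file headers, background was subtracted and spatial trends removed within each array, and the deposited flags, columns of other kind, mark spots well above background, saturated or outlying. All 4 arrays lie on 1 slide, so no slide effect could be estimated. The number of arrays limits the precision.

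Control and outlier spots were left out, spots of a probe averaged, log2 taken and each array's 75th percentile subtracted. Probes entered if well above background on all arrays of mLN or of pLN, and each gene was represented by its brightest entering probe, giving 21392 genes. These were tested with limma 3.58.1 (lmFit and eBayes, R 4.3.3, 4.35 total degrees of freedom) and Benjamini-Hochberg adjustment at 0.05. Values after ± are standard errors unless stated. An exact two-sided permutation of 2 against 2 arrays cannot go below 0.333. On simulated data with 50 genes changed at each size among 21392, 0% of 2-fold, 58% of 4-fold and 88% of 16-fold changes were called.

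The labels carry an experiment number, and the series' design text calls the approaches independent, so the number marks an mLN and a pLN sample of the same experiment. Deviations of the experiments correlated between nodes with r = 0.246 across genes. The fit with this number as a block is an alternative, with median scaling, normexp background (offset 50), other filters and probe rules, a variance trend, the deposited value table and each array left out.

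Probe names came from the files for Hox genes and, for other genes, from RefSeq names on GRCm38, used for names and promoter windows only. Named Hox genes were those with an unadjusted p below 0.05, a ratio of at least 2-fold one way in both experiments, detection in 1 node alone or probes of opposite sign. Of each other list, genes past the threshold, or otherwise up to 3 with the smallest p, were named. Members, lists and tests were chosen with earlier results of these data known. Some genes and sequences are not reported here, though counts and medians over a list include them.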

Additional observations from a re-analysis of the deposited data

How the results depend on the processing

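No Hox gene passed in any setting tried, and the self-test called none of the simulated 2-fold changes, so the ratios given do not show equal levels. Over all genes 225 were called, 354 under median scaling, 44 without a filter on dim probes, 441 with a variance trend, 0 with normexp (569 at an unadjusted limma p below 0.05) and 0 to 190 with 1 array left out (0 without either pLN array). With the experiment as a replicate block the count was 333 and the Hox count stayed 0, with a smallest limma adjusted p of 0.0731 (Hoxc8). At an unadjusted limma p below 0.05 the block gave 10 of 29 Hox genes, beside 3769 of 21392 genes. The block changed no call of a Hox gene or of a named gene of the other gene lists.

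The median log2 ratio of the 29 Hox genes, 0.04, was 0.051 with median scaling, 0.61 with normexp, 0.085 without the filter, 0.024 with the mean of probes and −0.047 to 0.077 with 1 array left out. For HoxA it was 0.64 with normexp, 0.17 without the filter, −0.17 with the mean of probes, −0.020 with each probe fitted by itself and −0.095 to 0.051 with 1 array left out, and for HoxB 0.11 with normexp, 0.072 without the filter and −0.069 to 0.11 with 1 array left out. HoxC had 1.04 with normexp and 0.44 without the filter, and HoxD −0.40 with normexp and −1.08 to −0.56 with 1 array left out. Normexp moved the median of all genes to 0.38. Relative to that, HoxA stood at 0.25, HoxB at −0.27, HoxC at 0.66 and HoxD at −0.78.

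Signs turned with normexp for Hoxa2 (0.36), Hoxa6 (0.95), Hoxb3 (0.11), Hoxb7 (−0.26), Hoxd11 (1.13), Hoxd12 (1.59), Calcoco2 (1.02), Cbx2 (0.33), En2 (0.67), Hoxaas2 (0.55), Hoxd3os1 (0.37) and Scmh1 (0.27). The median of all genes was 0.38 under normexp. Relative to that, Hoxa2 (−0.025) and Hoxb3 (−0.27) kept their main sign, and Hoxa6 (0.57), Hoxb7 (−0.64), Hoxd11 (0.75) and Hoxd12 (1.21) did not. Hoxb2 (−0.38), Hoxb4 (−0.0089) and Hoxc4 (−0.11) turned on that relative scale. Cbx2, Hoxd3os1 and Scmh1 lay below that median, and Calcoco2, En2 and Hoxaas2 above it. The mean of probes turned Hoxa3 (−0.17) and Hoxb2 (−0.38), and the other probe gave Hoxb6 0.28, Hoxb2 −0.92, Hoxa3 −0.40 and Hoxa4 −0.020. With 1 array left out the sign turned for 11 genes with small ratios: Hoxa4 (−0.016 to 0.35), Hoxa5 (−0.012 to 0.43), Hoxa10 (−0.034 to 0.63), Hoxb2 (−0.069 to 0.37), Hoxb3 (−0.22 to 0.11), Hoxb4 (−0.17 to 0.22), Hoxb7 (−0.083 to 0.16), Hoxb9 (−0.013 to 0.42), Hoxc4 (−0.045 to 0.12), Hoxd12 (−0.36 to 0.029) and Hoxaas2 (−0.56 to 0.065). The causes were not tested.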
